A study of Rattus norvegicus with 352 samples.

Results

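The brain hemisphere libraries compared here are those with the most and the least Hba-a1, the messenger RNA of a rat alpha globin chain, taken as a measure of blood left in the tissue. Each library was scaled to 1000000 estimated counts, which gives CPM, and the level of a gene is log2(CPM + 1). The groups were chosen by the Hba-a1 level alone: the top 25% of libraries are called high (86 libraries) and the bottom 25% low (86 libraries), and the 170 libraries between them complete the table. All were polyA RNA libraries from frozen brain hemispheres of naive, outbred heterogeneous stock rats that had received no treatment. The labels give no age, sex or perfusion, do not state that each library is a separate rat, and put all samples in 1 group, so the split rests on a measured value and a p-value here speaks only of the spread among libraries.

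Haemoglobin is built from alpha and beta globin chains that each hold a haem group. Mature red blood cells have no nucleus, but reticulocytes, the youngest red cells in the circulation, still carry globin messenger RNA together with a small set of other late erythroid transcripts. Brain tissue that is frozen without washing out its vessels holds blood in capillaries, larger vessels and the meninges. A whole-tissue library therefore mixes transcripts of blood cells with those of neurons, glia and vessel walls, and fewer cells of a type and less RNA per cell cannot be told apart in it.

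Promoters are shown for the 2 alpha globin genes that mark the groups, for 2 beta globin genes and for Alas2, the erythroid aminolevulinate synthase that starts haem synthesis in red cell precursors, because these genes rose and fell together over the libraries. Each is the 170 bases before the RefSeq start site on the assembly GRCr8, read 5′ to 3′ on the gene's strand. Capitals mark 4 short motifs searched on both strands: GATAA, the core bound by GATA factors, CACCC, bound by KLF factors, CCAAT, and TATAAA. The stretches are chr10:15842581-15842750 (minus strand) for Hba-a1, chr10:15829139-15829308 (minus strand) for Hba-a2, chr1:167663722-167663891 (minus strand) for Hbb, chr1:167631631-167631800 (minus strand) for Hbb-bs, and chrX:22895280-22895449 (plus strand) for Alas2.
Hba-a1: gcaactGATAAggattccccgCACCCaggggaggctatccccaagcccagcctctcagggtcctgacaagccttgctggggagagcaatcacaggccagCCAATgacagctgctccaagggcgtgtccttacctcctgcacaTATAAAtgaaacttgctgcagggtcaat
Hba-a2: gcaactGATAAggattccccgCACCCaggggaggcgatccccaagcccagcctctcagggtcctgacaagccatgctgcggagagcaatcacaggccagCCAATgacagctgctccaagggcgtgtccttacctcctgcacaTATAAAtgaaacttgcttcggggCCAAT
Hbb: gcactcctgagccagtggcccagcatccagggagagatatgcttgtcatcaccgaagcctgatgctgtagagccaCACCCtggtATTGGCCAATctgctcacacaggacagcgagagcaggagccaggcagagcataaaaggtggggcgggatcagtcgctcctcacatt
Hbb-bs: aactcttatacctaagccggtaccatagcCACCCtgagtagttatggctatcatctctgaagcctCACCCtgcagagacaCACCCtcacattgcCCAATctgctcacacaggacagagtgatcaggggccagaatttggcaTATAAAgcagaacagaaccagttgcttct
Alas2: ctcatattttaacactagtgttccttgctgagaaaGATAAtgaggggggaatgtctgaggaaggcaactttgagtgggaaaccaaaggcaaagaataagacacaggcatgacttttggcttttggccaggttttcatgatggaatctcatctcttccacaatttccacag
Over the 250 bases before the start, Hba-a1 and Hba-a2 differ at 9 positions, and both hold all 4 motifs, with CCAAT 71 and TATAAA 28 bases before the start. The beta globin promoters shown hold CACCC and CCAAT. The Alas2 stretch holds GATAA and none of the other 3 motifs. In 33469 RefSeq rat promoters of 250 bases, GATAA occurs in 23.5%, CACCC in 49.2%, CCAAT in 34.02% and TATAAA in 12.9%, so a match to any of these short motifs is common.

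Hba-a1 chose the groups, and its levels are given as a description. In the high libraries it ranged from 8.15 over a median of 8.44 to 9.15, and in the low libraries from 5.61 over 7.32 to 7.52. The mean was 8.47 ± 0.24 (SD, n = 86) in the high and 7.23 ± 0.31 (SD, n = 86) in the low libraries, which is 359.9 against 151.8 CPM. At the cut-offs the step was small: the highest low library was at 7.517 and the next one, outside the group, at 7.522, while the lowest high library was at 8.148 and the next below it at 8.145. Levels thus form a continuous range, with 2 libraries far below the rest at 5.61 and 5.73, against 6.597 in the third lowest.

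**Figure D1:**
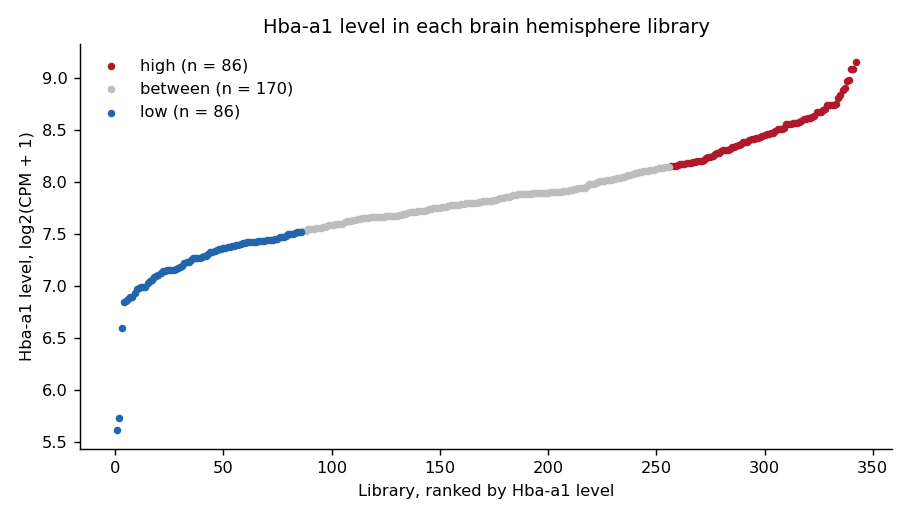
Hba-a1 level, log2(CPM + 1), in each library ranked from lowest to highest, with the 86 low libraries in blue, the 86 high libraries in red and the 170 between in grey. The curve has no gap at either cut-off, and the 2 lowest libraries, at 5.61 and 5.73, stand apart at its foot.

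Library totals ran from 5418230 to 42980793 estimated counts (median 21881769). They did not separate the groups (two-sided permutation test, adjusted p = 0.985 over 3 measures), and neither did the number of genes above 0 (adjusted p = 0.804) or the share of ribosomal RNA (adjusted p = 0.838). In their correlation with the other libraries 5 stood apart; of these, 1 was in the high and 1 in the low group, and without all 5 there were 968 higher and 2866 lower genes. The labels state that 14 libraries were renamed after a mismatch of genotypes.

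The second alpha globin gene, Hba-a2, encodes the same kind of chain and moved with Hba-a1. It lay between 6.58 and 7.78 in the high libraries (median 7.04) and between 4.18 and 6.29 in the low ones (median 5.92). The groups did not overlap, with means 1.19 apart and 133.7 against 58.5 CPM. Hba-a3, a less abundant alpha globin copy, had a median of 1.85 in the high and 1.32 in the low libraries, and its groups overlapped widely.

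The adult beta globin genes sit on chromosome 1, far from the alpha cluster on chromosome 10, and differed by a similar amount. Hbb, the most abundant of them, ranged from 6.601 over a median of 7.46 to 8.58 in the high and from 4.25 over 6.02 to 7.35 in the low libraries, a difference of 1.32. Of the low libraries, 16 lay above the lowest high one. Hbb-bs ranged from 4.25 over 4.91 to 5.73 in the high and from 2.16 over 3.81 to 4.34 in the low libraries, a difference of 1.201 with 1 low library above the lowest high one. Hbb-b1 differed by 0.88 (median 4.05 against 3.18).

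Some beta globin copies did not follow Hba-a1 in this way. Hbbl1 had a median of 5.94 in the high and 5.36 in the low libraries but a difference of means of only 0.03. It lay more than 2.5 below Hba-a1 in 43 high and 29 low libraries, of which 9 and 2 were at 0. Hbb-b2, added to the beta globin genes after its values were seen, ranged from 0.00 to 6.87 in the high and from 0.00 to 5.35 in the low libraries. Counts of a multigene family can be divided among similar copies, so the level of any single copy is uncertain; what sets the level of these copies was not tested. Summed over 8 beta globin genes the level was 7.04, 7.49, 7.77 and 8.28 in bins 1 to 4, which are the low libraries, 2 equal sets between and the high libraries, and summed over 5 alpha globin genes it was 7.71, 8.15, 8.44 and 8.94. Both sums rose by almost the same amount from low to high, 1.24 for beta and 1.23 for alpha. The embryonic globin genes Hbz and Hbe1 and the minor gene Hbq1b were under the level minimum of 0.5.

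**Figure D2:**
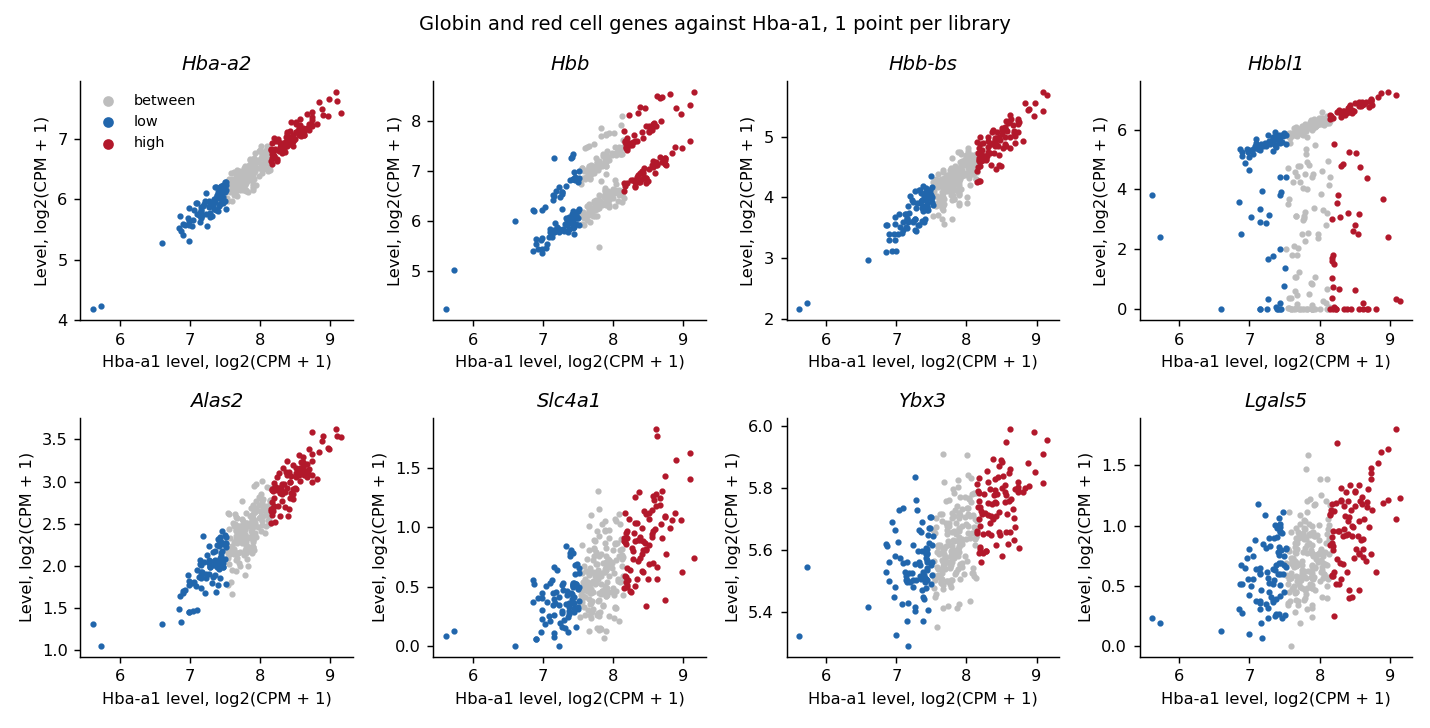
Level, log2(CPM + 1), of 4 globin genes (top) and 4 other genes (bottom) against the level of Hba-a1, 1 point per library, high in red, low in blue, between in grey. Hba-a2, Hbb-bs and Alas2 follow Hba-a1 in a single line, Hbb in parallel bands, and Hbbl1 in a line with many libraries below it; Slc4a1, Ybx3 and Lgals5 rise with wider scatter.

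Outside the globin genes, 19232 genes whose mean level reached 0.5 were compared between high and low libraries with limma and Benjamini-Hochberg adjustment over all genes. At an adjusted p under 0.05, 958 were higher in the high libraries (4.98%) and 2802 lower (14.6%). These were mostly small differences: the median size among called genes was 0.083. Counts of called list members further on stand beside the 4.98% and 14.6% of all genes tested, unless another fit is named. At 0.25 or more, 19 genes were higher (0.0988%) and 18 lower (0.0936%). Scaling by median ratios, which shifted the median difference of all genes by 0.011, changed the split to 1682 higher and 2014 lower. The high libraries also had less of the nuclear RNA Meg3 and more often had Xist below Ddx3y; both are given with their values further on, beside the genes they touch.

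**Figure D3:**
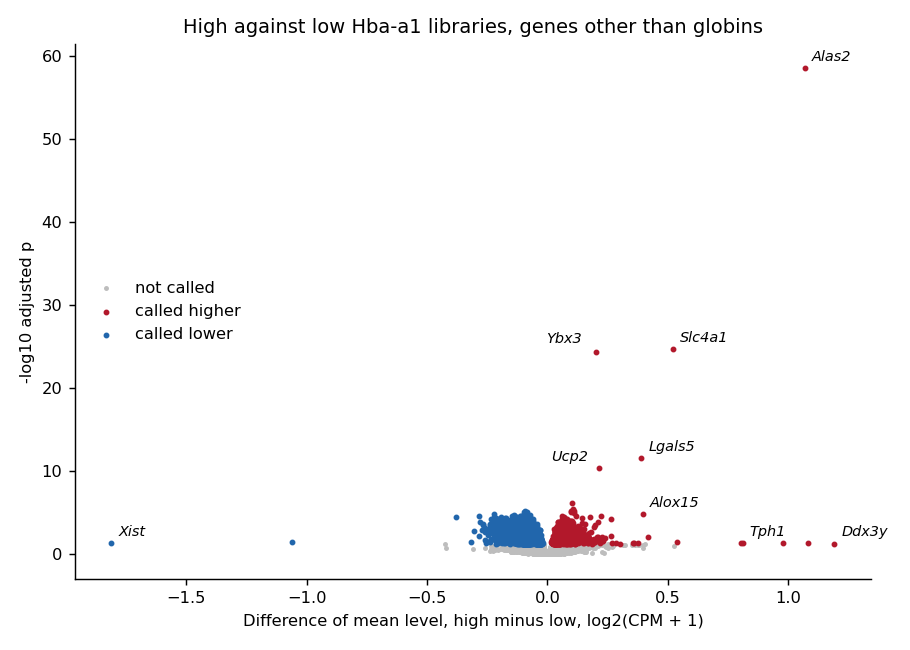
Difference of mean level, high minus low, log2(CPM + 1), against -log10 of limma's adjusted p for genes other than globins, with called higher genes in red, called lower genes in blue and the rest in grey. Alas2 stands alone at the top right with a difference of 1.07, followed by Slc4a1 at 0.52 and Ybx3 at 0.20.

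Alas2, the red cell form of the first enzyme of haem synthesis, had the smallest p of all genes tested. Its level ranged from 2.51 over a median of 3.02 to 3.63 in the high libraries and from 1.05 over 1.99 to 2.42 in the low ones, at means of 7.26 and 2.94 CPM. Every high library was above every low library, which held for 1 of the 19232 genes (0.0052%), Alas2 itself. The difference was 1.07 (SE 0.040, limma adjusted p = 2.82e-59), 2.47 times in mean CPM beside 2.37 times for Hba-a1. Over bins 1 to 4 of Hba-a1 its mean was 1.95, 2.30, 2.55 and 3.02, higher in each bin than in the one before.

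Alas2 was alone among the genes of haem synthesis in this. Of 13 tested, Alas2 was higher, Abcb6, a mitochondrial and membrane transporter for porphyrins, was lower by a small amount (-0.06), and 11 were not called. Alas1, the form of the first enzyme found in all tissues, differed by 0.02 (adjusted p = 0.348), and Fech, which puts the iron into haem, by 0.01 (adjusted p = 0.532). The median difference of the list was 0.00, beside -0.01 over all genes tested.

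Slc4a1, the anion exchanger band 3 of the red cell membrane, ranged from 0.33 over 0.90 to 1.83 in the high and from 0.00 over 0.39 to 0.84 in the low libraries. Its median was 19 estimated counts in the high and 7 in the low libraries, and 84 of 86 high libraries lay above the low median. The difference was 0.52 (SE 0.039, limma adjusted p = 1.67e-25), which the added pseudocount makes smaller than the ratio of mean CPM, 2.86. Of 20 red cell membrane and enzyme genes tested, 6 were higher and 0 lower, at a list median of 0.02: Slc4a1, the Rh blood group gene Rhd (0.12), Aqp1 (0.13), the glucose carrier Slc2a1 (0.10), catalase, Cat (0.05), and Bpgm (0.04). Apart from Slc4a1, none of these was called once Meg3 and the ribosomal RNA share were covariates. Aqp1 is also made by the choroid plexus and Slc2a1 by brain endothelium, so these counts are not specific to red cells. The share higher over all genes tested was 4.98%.

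Erythroid genes too scarce for the level minimum were read in the fit without one, where 2.84% of 28931 genes were higher and 8.71% lower. Hemgn, a nuclear protein of red cell precursors, had a mean level of 0.34 in the high and 0.21 in the low libraries (adjusted p = 0.000151 by limma). Ahsp, the chaperone of free alpha globin, stood at 0.37 against 0.29 (adjusted p = 0.0126), and the Kell antigen gene, Kel, at 0.24 against 0.16 (adjusted p = 0.00987). Gata1, the master factor of red cell precursors, was at 0.08 against 0.04, with 33 high and 47 low libraries at 0 (adjusted p = 0.0155). The membrane gene Ermap, the carbonic anhydrase gene Car1, Trim10, Tspo2 and the erythroid factor genes Nfe2 and Gfi1b differed by 0.0052 to 0.015 and were not called (adjusted p from 0.224 to 0.946). Each of these levels is under 1 CPM and rests on few counts.

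Ybx3 encodes a cold-shock domain protein that binds RNA and is abundant in reticulocytes, though brain cells make it too. It ranged from 5.56 over 5.76 to 5.99 in the high and from 5.29 over 5.55 to 5.83 in the low libraries. All 86 high libraries were above the low median, while 34 low libraries were above the lowest high one. The difference was 0.20 (SE 0.015, limma adjusted p = 4.75e-25).

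Lgals5, galectin-5, a lectin of rat reticulocytes, ranged from 0.25 over 0.99 to 1.81 in the high and from 0.07 over 0.60 to 1.18 in the low libraries. It differed by 0.39 (SE 0.044, limma adjusted p = 2.36e-12), and 75 of 86 high libraries lay above the low median. Alox15, the lipoxygenase that helps reticulocytes clear their organelles, ranged from 1.12 over 2.18 to 3.08 against 0.88 over 1.79 to 2.88. Its difference was 0.40 (SE 0.066, adjusted p = 1.25e-05), with wide overlap of the groups. Ucp2, a mitochondrial carrier protein, ranged from 4.46 over 4.88 to 5.33 against 4.19 over 4.70 to 5.08, a difference of 0.22 (SE 0.026, adjusted p = 4.24e-11).

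Smaller differences on the same side were found for Rhog, a small GTPase (0.10, adjusted p = 5.6e-07), Ada, adenosine deaminase (0.18, adjusted p = 2.7e-05), and Slc25a39, a mitochondrial carrier (0.08, adjusted p = 4.83e-05). Cdc25b, picked by hand along with these genes after the values were seen, differed by 0.01 and was not called (limma adjusted p = 0.764). The list of reticulocyte and late erythroid genes had 7 of 16 tested members higher and 0 lower, at a median of 0.02, led by Tent5c (0.13) and the glycine carrier Slc6a9 (0.10). With Meg3 and the ribosomal RNA share as covariates 0 of the 16 were called. Among erythroid transcription factors and receptors, Ikzf1 was higher (0.09), the erythropoietin receptor gene Epor was lower (-0.11), and 7 of 9 were not called.

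The same genes were read in the 170 libraries between the groups, which the comparison did not use, as the slope of their level on that of Hba-a1. Alas2 rose by 0.89 per unit of Hba-a1 (SE 0.087, limma adjusted p = 5.92e-16) and Ybx3 by 0.21 (SE 0.043, adjusted p = 0.00584). These were the 2 positive slopes called among 19232 genes (0.0104%). Stap1, an adaptor protein gene of immune cells, and an unnamed locus, LOC134483793, had the 2 negative slopes called (0.0104%), and Stap1 did not differ between high and low libraries (-0.05, adjusted p = 0.336). At an unadjusted p under 0.05, 2355 genes were found (12.2%). Slc4a1 had a slope of 0.37 (adjusted p = 0.21), Lgals5 of 0.38 (adjusted p = 0.252), Ucp2 of 0.29 (adjusted p = 0.187) and Alox15 of 0.22 (adjusted p = 0.675), none of them called. Of the 958 higher genes 902 (94.2%) had a positive slope here, beside 40.7% of all genes tested, and of the 2802 lower genes 2624 (93.6%) a negative one, beside 59.3% of all. The range of Hba-a1 in these libraries is narrow, 7.52 to 8.15, which limits the precision of a slope.

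Library identifiers share their first 6 characters in blocks, which the labels do not describe as batches. Within the 4 blocks that held at least 5 libraries of each group, Alas2 differed by 1.14, 1.17, 0.89 and 0.77, Slc4a1 by 0.57, 0.62, 0.29 and 0.30, and Ybx3 by 0.22, 0.19, 0.17 and 0.16. The order of these genes by size was thus kept in each block. Within libraries with Xist above Ddx3y, Alas2 differed by 1.08, and within those with Xist below Ddx3y by 1.06. Without the 2 libraries of lowest Hba-a1 the difference of Alas2 was 1.05, and 1020 genes were higher and 2837 lower.

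White blood cells and platelets travel in the same blood as red cells, so their markers were read as a check of the label. Of 20 neutrophil genes only 5 reached the level minimum. Among them 0 were higher and 1, Hp, which encodes the haemoglobin scavenger haptoglobin, was lower (-0.10). Of all 19232 genes tested, 4.98% were higher and 14.6% lower. The granule genes S100a8 and S100a9, among the most abundant messenger RNAs of neutrophils, had mean levels of 0.10 and 0.18 in the high and 0.08 and 0.12 in the low libraries (adjusted p = 0.548 and 0.0592 without the level minimum). The summed level of the neutrophil list ran from 3.13 to 3.89 in the high and from 3.30 to 3.89 in the low libraries.

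None of the 9 platelet genes tested was called, and the platelet chemokine gene Ppbp was at 0 in 75 of 86 high and 81 of 86 low libraries. Of 5 T and NK cell genes 0 were called, and Cd3e stood at 0.45 in both groups. Of 4 B cell genes 1 was higher, Pax5 (0.11), and Cd79a was at 0.11 against 0.08. Of 13 monocyte genes 4 were higher, namely Fn1 (0.13), Ace (0.11), Itgal (0.10) and Csf1r (0.06), and of 13 general leukocyte genes 3, namely Itgb2 (0.09), Arhgdib (0.09) and Laptm5 (0.06). The share higher over all genes tested was 4.98%. Fn1 and Ace are also made by vessel wall and choroid plexus cells, and Csf1r and Laptm5 by microglia. None of these 7 was called with Meg3 and the ribosomal RNA share as covariates. S100a8, S100a9, Ppbp, Cd3e and Cd79a were under the level minimum in both groups, while Pax5 was above it, at a mean level of 1.54 in the high and 1.44 in the low libraries. Of the defining red cell markers, Alas2 and Slc4a1 were higher in the high libraries. Hba-a2 and Hbb were higher too, but they share reads or cell source with Hba-a1. They are given as a description and are no separate check of the label.

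**Figure D4:**
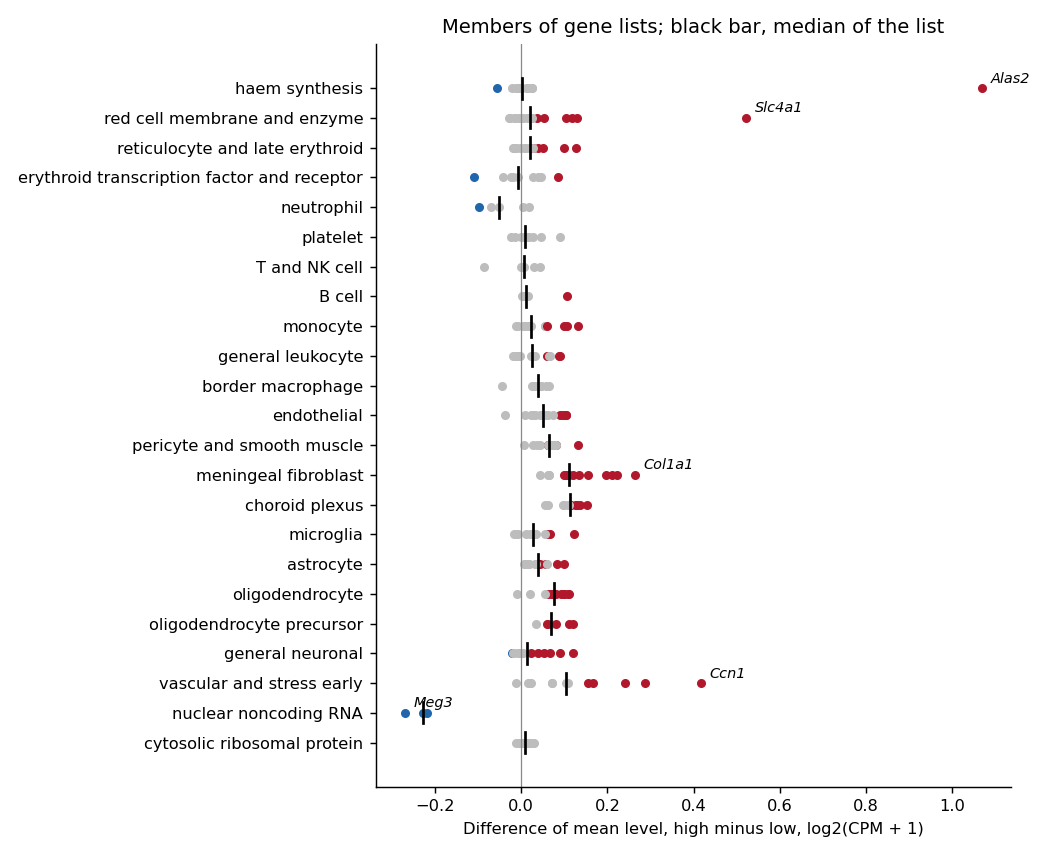
Difference of mean level, high minus low, log2(CPM + 1), of each tested member of 23 gene lists, with called higher members in red, called lower ones in blue, the rest in grey, and the list median as a black bar. Alas2 (1.07) and Slc4a1 (0.52) lie far from the rest of their lists, neutrophil to T cell members lie near 0, and meningeal, choroid plexus and oligodendrocyte members lie mostly to the right.

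Genes of the meninges and the choroid plexus were higher as well. Of 15 meningeal fibroblast genes 11 were higher and 0 lower, at a list median of 0.11. Over all genes tested 4.98% were higher and 14.6% lower. Col1a1, a chain of type I collagen, ranged from 4.39 over 5.15 to 6.15 in the high and from 3.98 over 4.90 to 5.67 in the low libraries, a difference of 0.26 (SE 0.049, adjusted p = 5.53e-05). Col3a1 differed by 0.22, Col1a2 by 0.21 and the growth factor gene Igf2 by 0.20. Col1a1 and Col3a1 were still called with Meg3 and the ribosomal RNA share as covariates, at 0.18 and 0.15. Col1a1 missed the threshold within libraries of either Xist level taken alone (adjusted p = 0.0697 and 0.052).

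Of 13 choroid plexus genes 7 were higher, among them Ttr, the thyroid hormone carrier (0.13), and the folate receptor gene Folr1 (0.13), at a list median of 0.11. With the 2 covariates 0 of them were called. Of 19 endothelial genes 4 were higher, at a median of 0.05, including the tight junction gene Cldn5 (0.09) and Vwf (0.10). Of 14 pericyte and smooth muscle genes 3 were higher, and of 8 border macrophage genes 0. The medians of the endothelial and pericyte lists (0.05 and 0.06) lay below those of the meningeal and choroid plexus lists. The lists were not tested against each other. Beside their counts, 4.98% of all genes tested were higher.

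Early response genes of vessels and stress had 5 of 13 members higher, at a median of 0.10. Ccn1, a matricellular protein induced in vessels, ranged from 0.51 over 1.40 to 4.23 against 0.36 over 1.11 to 4.70 and differed by 0.42 (adjusted p = 0.00693). Apold1, an endothelial early gene, differed by 0.29 (adjusted p = 0.0375) and Klf2, the flow-responsive endothelial factor, by 0.24 (adjusted p = 0.00922). For all 3, the highest among the high and low libraries was a low one, while the median was higher in the high libraries. None was called with the 2 covariates. Genes of iron and haem handling had 6 of 22 members higher and 1 lower, including ferritin light chain, Ftl1 (0.05), and Mt1 (0.12). Among 16 hypoxia-induced genes 3 were higher and 2 lower, with Vegfa lower by 0.13 (difference -0.13, adjusted p = 0.00125). The shares over all genes tested were 4.98% higher and 14.6% lower.

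Myelin genes were higher by small but regular amounts. Of 12 oligodendrocyte genes 9 were higher, at a median of 0.08. Mbp, myelin basic protein, ranged from 12.19 over 12.46 to 12.90 in the high and from 12.13 over 12.37 to 12.60 in the low libraries, a difference of 0.10 (SE 0.016, adjusted p = 8.74e-06). Cnp and Cldn11 differed by 0.11 each and Mag by 0.10. Of 8 genes of oligodendrocyte precursors 6 were higher, including Olig1 (0.12) and Gpr17 (0.11). With Meg3 and the ribosomal RNA share as covariates 5 of the 12 and 2 of the 8 were called. Of 12 astrocyte genes 4 were higher, of 13 microglia genes 3, and of 12 general neuronal genes 6 were higher and Snap25 was lower (-0.02). The 20 ribosomal protein genes tested were all short of the threshold. Beside these lists, 4.98% of all genes tested were higher and 14.6% lower.

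Nuclear noncoding RNAs were among the genes lower in the high libraries. Meg3, a long noncoding RNA kept in the nucleus of neurons, ranged from 7.47 over 8.65 to 9.74 in the high and from 7.89 over 8.84 to 9.79 in the low libraries, a difference of -0.27 (SE 0.064, adjusted p = 0.00123). Its mean was 8.83, 8.81, 8.64 and 8.56 in bins 1 to 4. The 8 called genes with a larger fall were Xist, given further on, Smokl8 (-0.31) and 6 unnamed loci, among them LOC134480365 (-0.38). Only 3 of the 9 nuclear noncoding RNAs on the list were in the data. Beside Meg3, Snhg11 (-0.23) and Miat (-0.22) were lower too, so that all 3 were called. Leng8 (-0.23), Pnisr (-0.23) and Trank1 (-0.23) differed by as much. Among lower genes with the smallest p were Stx16, a syntaxin of the Golgi (-0.09), Tardbp, which encodes the RNA-binding protein TDP-43 (-0.09), Pank2, a coenzyme A synthesis enzyme (-0.10), Fubp1 (-0.09) and Prpf4b, a splicing kinase (-0.14).

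When Meg3 and the ribosomal RNA share entered the fit as covariates, the counts fell to 43 higher (0.224%) and 79 lower (0.411%). Of these, 40 and 68 were among the genes called without the covariates. Among the genes described above Alas2 then differed by 1.08, Slc4a1 by 0.54, Lgals5 by 0.38, Alox15 by 0.35, Ybx3 by 0.18 and Ucp2 by 0.18, and all 6 were still called. Of the 6 called red cell membrane and enzyme genes 1 was still called, Slc4a1, and of the 7 called reticulocyte genes 0, at list medians of 0.01 and 0.00. Many lower genes moved close to 0, such as Leng8 (-0.01, adjusted p = 0.62), Miat (-0.01, adjusted p = 0.82) and Rtbdn (-0.01, adjusted p = 0.903). What sets the level of Meg3 in a library was not tested.

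**Figure D5:**
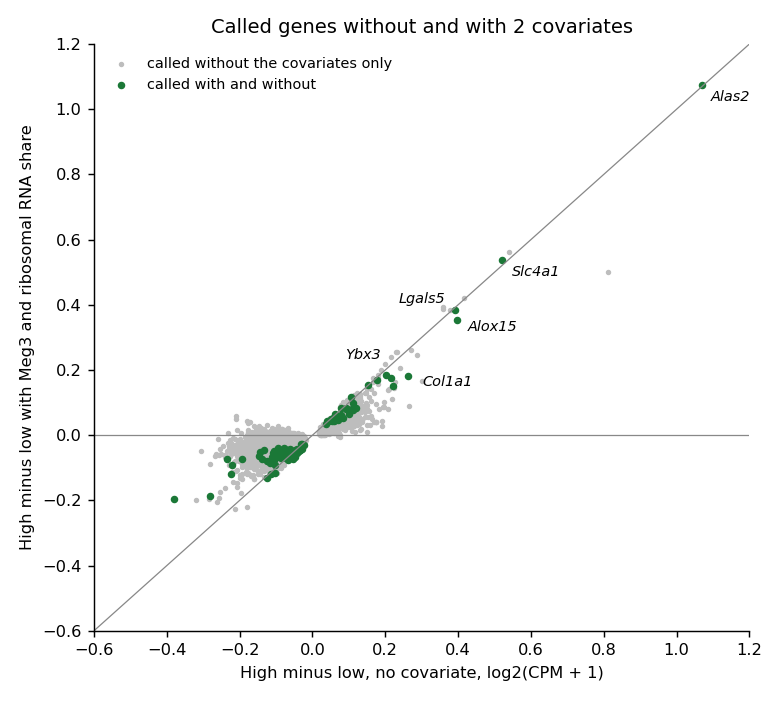
Difference of mean level, high minus low, log2(CPM + 1), of called genes other than Meg3, Xist and Y-linked genes, without covariates (x axis) and with Meg3 and the ribosomal RNA share as covariates (y axis), with genes called in both fits in green and those called without covariates only in grey. Alas2, Slc4a1, Lgals5, Alox15 and Ybx3 lie near the diagonal of equal values, and most lower genes lie nearer to the line at 0.

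Libraries with Xist above Ddx3y, the pattern of female rats, numbered 55, 48, 36 and 38 in bins 1 to 4 of Hba-a1 (of 86, 85, 85 and 86). Xist, the RNA of the inactive X chromosome, was accordingly lower in the high libraries (-1.81, adjusted p = 0.0406), and the Y-linked genes Ddx3y (1.19), Eif2s3y (1.09), Kdm5d (0.98) and Uty (0.81) were higher. With Xist as a covariate 700 genes were higher (3.64%) and 1897 lower (9.86%), and their part in the other results was not tested beyond the fits given here. The interaction of the groups with Xist above or below Ddx3y called 0 genes by limma, with 753 at an unadjusted p under 0.05 (3.92%).

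Among other large differences, Tph1, the tryptophan hydroxylase of the pineal gland, differed by 0.81 (SE 0.300, adjusted p = 0.0422). It ranged from 0.26 over 3.30 to 6.23 in the high and from 0.15 over 0.93 to 5.93 in the low libraries. Without the 2 libraries of lowest Hba-a1 it missed the threshold (0.77, adjusted p = 0.0551), and the difference was reversed in 1 of the 4 identifier blocks (-1.29). Pou4f1, a factor of the habenula, differed by 0.27 (adjusted p = 0.00654).

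Genes around the globin clusters were read because they share the chromosome with the globin genes. Of 11 tested around the alpha cluster 1 was higher, Fam234a (0.05), and 3 were lower, led by Pdia2 (-0.19). Nprl3, which overlaps the known upstream alpha globin enhancers, differed by -0.01 (adjusted p = 0.703). Of 9 around the beta cluster 0 were higher and 2 lower, Olr59 (-0.14) and Dnhd1. None of these neighbours was called with Meg3 and the ribosomal RNA share as covariates.

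Across 14 other settings of the fit, from the pseudocount to the covariates and the choice of groups, 33 higher and 47 lower genes kept their call in each one. Alas2 was not read in the groups chosen by Alas2. Fits within libraries of either Xist level, or without the 2 libraries of lowest Hba-a1, are not among the 14. Within either Xist level far fewer genes were called, and Col1a1 was not called. The 14 settings leave out the slope between the groups, where 2 of these 80 genes were called, Alas2 and Ybx3, and a level minimum of 3, under which 8 of them were not tested, including Alas2, Slc4a1, Lgals5, Alox15 and Ada. The higher ones included Alas2, Slc4a1, Ybx3, Lgals5, Alox15, Ucp2, Rhog and Ada, the myelin genes Mbp, Mag, Cnp and Cldn11, and the collagens Col1a1 and Col3a1. The lower ones included Tardbp, Fubp1, Hnrnph1 (-0.07), Hnrnpa2b1 (-0.07), Prpf4b, Pnisr and the glutamate receptor gene Gria2 (-0.11). Each of the lower genes named here differed by less than 0.25.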

How the data were processed

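PolyA RNA of brain hemispheres was sequenced, and the submitters' processing notes name kallisto, with its version not given in the sources used here, as the counting tool. The authors deposited log2 values; raising 2 to each value and taking off 1 gives estimated counts. Of turned-back values between 0.5 and 5, 63.2% were whole within 0.002. Of 352 labelled samples 342 are in the table and 10 are not analysed here. The closest pair of libraries had a chi-square of 5.09 for each degree of freedom over their counts, and none was counted as a repeat. Samples are numbered in accession order.

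Each library was scaled to 1000000, and log2(CPM + 1) of the 19240 genes whose mean level reached 0.5 was fitted with limma 3.58.1 (trend) in R 4.3.3, high minus low, with Benjamini-Hochberg adjustment and a threshold of 0.05. The 8 globin genes tested were described only and left out of counts and p-values. Differences on this scale understate those of low genes. The fit was tried on simulated data in which each gene varied on its own, which does not test it on genes that move together. A level of 1 is 1 CPM, a few counts in the smallest libraries. Symbols of 38278 of 38354 genes matched RefSeq on GRCr8, which gave the promoters.

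The groups and gene lists were chosen with earlier results of these data known. Genes were named by a rule: globin genes, called members of blood cell lists, up to 4 members of other lists, the 15 largest rises and falls among genes whose mean level reached 1, and the 10 smallest p. Ada, Rhog, Slc25a39, Cdc25b, Stap1, Igf2, Ttr, Snap25, Gria2, Hnrnph1, Hnrnpa2b1 and the scarce blood genes were named after their values were seen. Another scarce red cell gene is not reported here. Alternatives changed the pseudocount, scaling, level minimum, covariates, libraries and the choice of groups.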

Additional observations from a re-analysis of the deposited data

How the results depend on the processing

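Alas2 and Ybx3 kept their direction and their call under each alternative run on them, Alas2 between 0.84 and 1.495 and Ybx3 between 0.16 and 0.27; groups chosen by Alas2 were not read for Alas2. Slc4a1, Lgals5, Alox15 and Ucp2 lost their call only as slopes between the groups. The shares of genes called depended more on the processing. In the order higher, lower, higher by at least 0.25 and lower by at least 0.25, they were 4.98%, 14.6%, 0.0988% and 0.0936% as reported. With Meg3 and the ribosomal RNA share as covariates they were 0.224%, 0.411%, 0.0208% and 0%. With groups chosen by Alas2 they were 2.09%, 6.21%, 0.0468% and 0.0260%. In libraries with Xist above Ddx3y they were 0.463%, 1.08%, 0.0312% and 0.0364%, and with Xist below Ddx3y 0.406%, 0.666%, 0.0312% and 0.0156%; both were chosen after seeing the data and hold fewer samples. At 0.25 or more, a pseudocount of 0.1 gave 0.208% higher and 0.655% lower, and Xist as a covariate 0.0572% and 0.0364%. A level minimum of 3, which tests fewer genes, gave 15.5% lower (1818 genes against 2802) and, at 0.25 or more, 0.0256% and 0.0937%. Without a minimum 0.0277% were higher by at least 0.25, and with the identifier block as a term 0.0572%. Median ratio scaling gave 8.75% higher. The top and bottom 10% gave 2.11% higher and 0.894% lower by at least 0.25, the top and bottom 33% 0.0364% lower by at least 0.25. As slopes between the groups 0.0104% were called in each direction (2 genes each). With a level minimum of 3 these were 0.00852% and 0%. The negative slopes came to 0.0052% with the identifier block or without the libraries with fewest genes, and to 0% with the 2 covariates or without the libraries that stand apart. Causes were not tested.

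Some single genes changed sign. With the 2 covariates Abcb6 came to 0.0082 and Dnhd1 to 0.0034. As slopes between the groups Apold1 (-0.0066), Bpgm (-0.013), Btg2 (-0.0056), Mkrn1 (-0.0082), Nfkbia (-0.031), Tmem119 (-0.070) and Hbb-b2 (-0.58) were below 0 and Rn45s (0.13) above. Hbbl1 was below 0 with a pseudocount of 0.1 (-0.19), the identifier block (-0.20), the 2 covariates (-0.043), without the libraries with fewest genes (-0.062) and with Xist below Ddx3y (-0.27). The Y-linked genes turned with Xist as a covariate (Ddx3y -0.034, Eif2s3y -0.023, Kdm5d -0.0026, Uty -0.0036) and in libraries with Xist below Ddx3y (Ddx3y -0.055, Eif2s3y -0.034, Kdm5d -0.012, Uty -0.0054), where Xist (0.11) and Vtn (-0.034) turned as well. No paired analysis was possible because the labels do not say which libraries, if any, share a rat. Depth limits the scarce blood genes, which rest on few counts in each library.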

Other observations

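The beta globin copies fell into patterns when their levels were set against that of Hba-a1. The level of Hbb minus that of Hba-a1 lay in 3 bands over all libraries: 54.97% of libraries between -2.31 and -1.02, 37.7% between -0.95 and -0.46, and 25 libraries, 7.31%, between -0.35 and 0.11. The limits of -1.0 and -0.4 were read off after the values were seen. Hbbl1 lay within 2.5 of Hba-a1 in 99.5% of libraries of the lower band, in 1 library of the middle band and in 0 of 25 in the upper one, and it was at 0 in 22 of these 25. Hbb-b2 had a level above 3 in 4 libraries of the lower band, in 98.4% of the middle band and in each of the 25 of the upper one. The bands were present in both groups: 43, 34 and 9 of the high libraries and 56, 26 and 4 of the low libraries lay in the lower, middle and upper band. The difference of these counts was not tested.

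Summed over the beta globin genes the bands closed. The level of the sum minus that of Hba-a1 spanned 0.55 from the 5th to the 95th percentile, against 1.43 for Hbb alone, 6.50 for Hbbl1, 6.29 for Hbb-b2, 0.60 for Hbb-bs, 0.40 for Hba-a2 and 0.60 for Alas2. Relative to Hba-a1, Hbb, Hbbl1 and Hbb-b2 thus spread more widely than the sum of the copies, while Hbb-bs spread nearly as little. Before their start sites on GRCr8, Hbb-bs and Hbbl1 differ at 11 bases of the stretch that could be aligned without gaps.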
